A study of Homo sapiens with 4 samples.

Results

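Mitochondrial ribosomal proteins are the nuclear-encoded proteins of the ribosome inside mitochondria, and 78 genes for them were read here in leukaemia cells labelled CEBPB and in control cells. The genes were chosen by symbol, as MRPL (large subunit) or MRPS (small subunit) followed by a number and, in a few cases, a letter A, B or C. The rule found 49 MRPL and 29 MRPS genes among 41084 Ensembl identifiers, of which 35690 had a symbol, and 77 of the 78 had enough counts to test. The cells were OCI-AML3, an established human acute myeloid leukaemia line, sequenced as 2 libraries of genotype Plex CEBPB and 2 of Plex Control. No other treatment or time is named in the labels, the sources used here do not explain the word Plex, and nothing says that the 2 libraries of a group came from separate cultures, so p-values measure only the spread between these libraries. CEBPB, the gene of the transcription factor C/EBPβ, read 536 and 339 TPM in the CEBPB libraries, against 4.72 and 4.47 TPM in the control libraries (log2 fold change 6.38, SE 0.26).

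The mitochondrial ribosome makes the few proteins that the mitochondrial genome encodes, all of them core parts of the respiratory chain and ATP synthase. Its proteins are translated in the cytosol and imported, and they assemble on ribosomal RNA made inside the organelle. Some have counterparts in the bacterial ribosome, and the unified nomenclature marks these with u or b. Others, marked with m, were added during the evolution of mitochondria.

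The deposited counts summed to 18151225 to 21950575 per library. Of 13698 identifiers with enough counts to test, 24.7% were lower and 23.7% higher in the CEBPB libraries at an adjusted p under 0.05 (edgeR quasi-likelihood test, Benjamini-Hochberg adjustment over all identifiers tested). TPM, the authors' measure of transcript abundance, is a level per transcript length, with an equal total for each library. Log2 fold changes are CEBPB over Control after scaling by trimmed means of M values, and with library totals in place of this scaling the median of all genes moved to 0.18, against 0.00 otherwise. A member can therefore stand at equal TPM in both groups and still have a log2 fold change below 0. Of 8 listed myeloid genes CD33 and HOXA9 did not pass, with CD33 at 50.0 TPM on average in CEBPB and 46.9 TPM in control libraries and HOXA9 at 50.9 and 53.5 TPM. The other 6 differed: LYZ (7804 TPM in CEBPB and 1360.2 TPM in control libraries), CD14 (4.99 and 1.03 TPM), ITGAM (4.88 and 1.25 TPM) and MEIS1 (21.6 and 9.96 TPM) rose. SPI1 (112 TPM in CEBPB and 221 TPM in control libraries) and MPO (0.301 and 1.34 TPM) fell. Of 15 markers of T, B, erythroid, epithelial and fibroblast cells 6 were at 0 in all libraries, CD3E and HBB among them. Together the 15 markers summed to 5.15 and 5.58 TPM in the CEBPB libraries and 4.09 and 4.17 TPM in the controls, and the part of either list in the results was not tested. In RNA of whole cultures, fewer cells of a type and less RNA per cell cannot be told apart.

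Short promoter sequences are shown first, since many of these genes share one. RefSeq start sites on GRCh38.p14 were found for 69 of the 78 genes, and the 250 bases before and 50 bases after the first listed start were searched on both strands. AAGATGGC, the core bound by the factor YY1, occurred in 20 of the 69 windows (28.99%), against 5.75% of the windows of the 9585 tested genes that had one and 3.03% of all 27305 genes. In the 19 genes where the match lay far enough inside the window there were 20 matches, 16 of them on the gene's own strand and 14 of them after the start, with a median position of 10 bases after it. Of the 4 holders with the lowest log2 fold changes 3 are given, and the 4 with the highest, as 30 bases on the strand that reads AAGATGGC, with those 8 bases in capitals:
MRPS27 (chr5:72320206-72320235, minus strand): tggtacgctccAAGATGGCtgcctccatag
MRPL20 (chr1:1407260-1407289, minus strand): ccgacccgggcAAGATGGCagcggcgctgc
MRPL52 (chr14:22829812-22829841, plus strand): aacccagattcAAGATGGCgacttcctgct
MRPS10 (chr6:42217834-42217863, minus strand): tcgggaccggcAAGATGGCggcgcggacag
MRPS18A (chr6:43687764-43687793, minus strand): gtaggtttttgAAGATGGCggccctcaagg
MRPL51 (chr12:6493223-6493252, minus strand): gggtaaggcccAAGATGGCtgtcttcgcct
MRPL32 (chr7:42932143-42932172, minus strand): ctcttcgggtaAAGATGGCggagcgcgggt
The match of MRPL32 lay on the strand opposite to the gene, and those of the other genes shown lay on its own strand. MRPL52 held a second match further upstream that is not shown.

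Genes with and without this sequence both included members that fell. Among the 19 tested holders 10 fell and 1 rose, with a median log2 fold change of -0.31. Among the 49 tested members with a window and no match 30 fell and 3 rose, with a median of -0.43. Over all identifiers tested, 24.7% were lower and 23.7% higher. CCGGAAGT, the core of ETS factor sites, stood in 11 of 69 windows (15.9%, against 9.51% of tested genes). The holders with the lowest log2 fold changes were MRPS34 and MRPL3, shown with these 8 bases in capitals:
MRPS34 (chr16:1773136-1773165, plus strand): cagcggtccggCCGGAAGTcaccggaagag
MRPL3 (chr3:131502985-131503014, minus strand): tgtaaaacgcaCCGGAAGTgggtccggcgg
CACGTG, the E-box read by MYC and MAX, stood in 6 windows (8.70%, against 10.3% of tested genes). A match is a description of letters and not a binding site. CCAAT, read by NF-Y, stood in 20 (28.99%, against 37.2%), and the palindromic site of NRF1 in 1 (1.45%, against 2.44%). TTNNGNAA, which covers many C/EBP sites, stood in 20 windows (28.99%, against 26.1%). Among the 20 tested genes with TTNNGNAA 11 fell and 1 rose, and among the 48 without it 29 fell and 3 rose. The shares over all identifiers tested were 24.7% lower and 23.7% higher.

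Most mitochondrial ribosomal protein genes were lower in the CEBPB libraries, by modest amounts. Of the 77 members tested 46 fell and 5 rose, while 26 did not pass. The 46 are 59.7% of the members, against 24.7% of all identifiers that were lower, and the 5 are 6.49%, against 23.7% that were higher. The median log2 fold change of the members was -0.41, with quartiles at -0.63 and -0.14, against a median of 0.00 and quartiles at -0.43 and 0.46 over all identifiers tested. The lowest and highest members stood at -1.23 and 0.71. Tested against a change of 1.5-fold in place of 0, 12 members fell (7 of the large and 5 of the small subunit) and 0 rose, against 8.67% lower and 8.66% higher of all identifiers (edgeR). At an unadjusted p under 0.05 in that test 1 member was higher, and tested against 0 the rises numbered 4 with DESeq2 and 5 with limma-voom. With library totals as the scaling, 37 members fell and 7 rose, against 17.2% lower and 32.3% higher of all identifiers, and the median of the members was -0.23. The calls of 9 members were lost there, those of MRPS17, MRPS7, MRPL53, MRPL2, MRPS14, MRPL30, MRPS18B, MRPS30 and MRPS5.

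**Figure D1:**
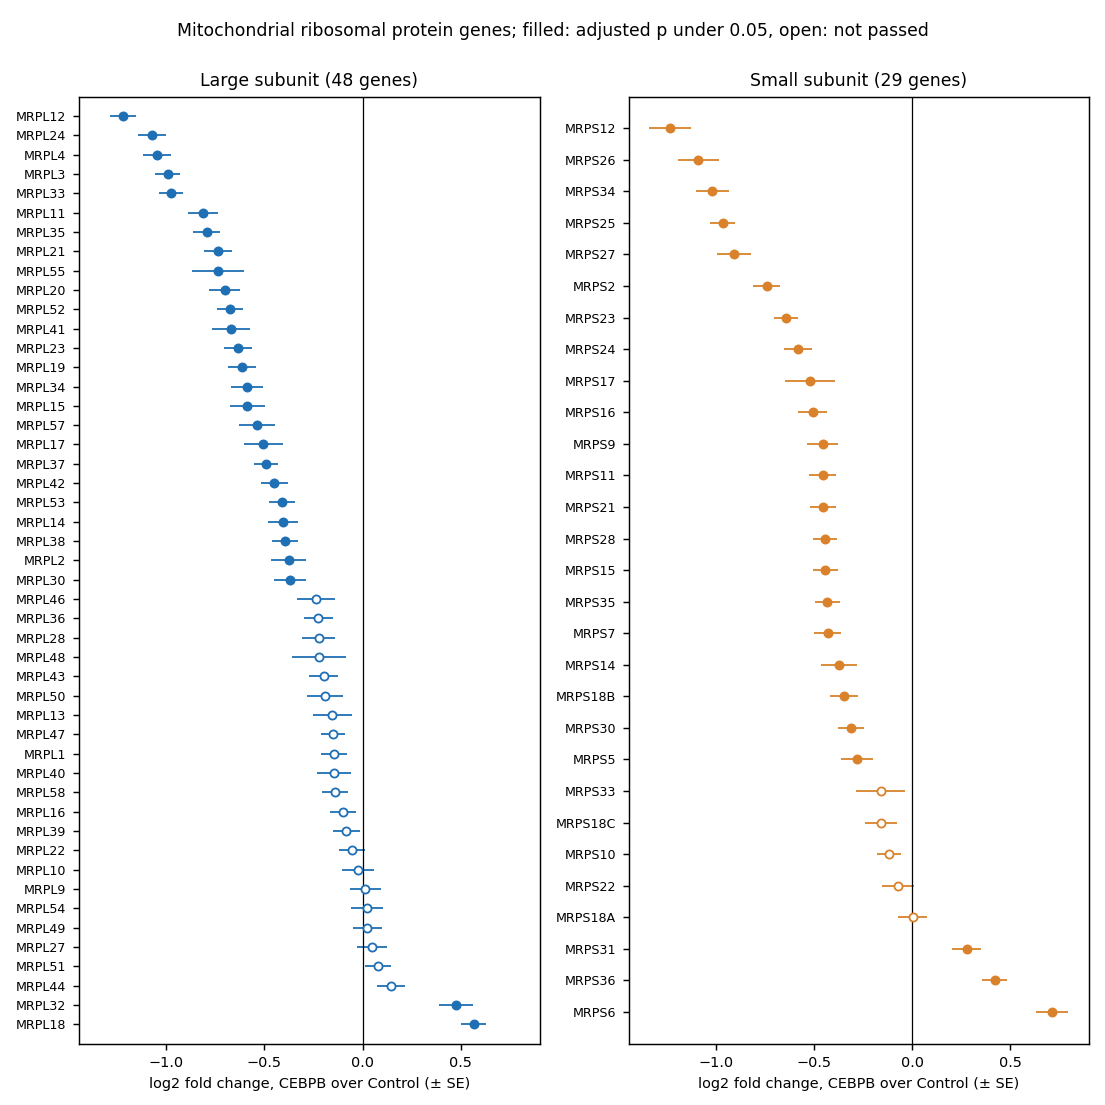
Log2 fold change (CEBPB over Control, x axis) of each tested member of the large subunit (left, 48 genes) and small subunit (right, 29 genes), with bars of 1 standard error; filled points passed at adjusted p under 0.05. In the large subunit 25 genes fell and 2 rose, and in the small subunit 21 fell and 3 rose. Of all identifiers tested, 24.7% were lower and 23.7% higher.

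Genes of both subunits fell. In the large subunit 25 of 48 tested genes fell (52.1%) and 2 rose, with a median log2 fold change of -0.37. In the small subunit 21 of 29 fell (72.4%) and 3 rose, with a median of -0.44. Of all identifiers tested, 24.7% were lower and 23.7% higher, with a median of 0.00. Genes that did not pass made up 21 of the large and 5 of the small subunit. Symbols do not always follow the structure: MRPS30 (mL65) and MRPS18A (mL66) sit in the large subunit of the human mitochondrial ribosome, and MRPS36, also called KGD4, is a part of the oxoglutarate dehydrogenase complex. With these 3 placed accordingly, 26 of 50 large-subunit genes fell and 2 rose (median -0.34), and 20 of 26 small-subunit genes fell and 2 rose (median -0.45). The difference between the subunits was not tested, since members of a list are not replicates.

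**Figure D2:**
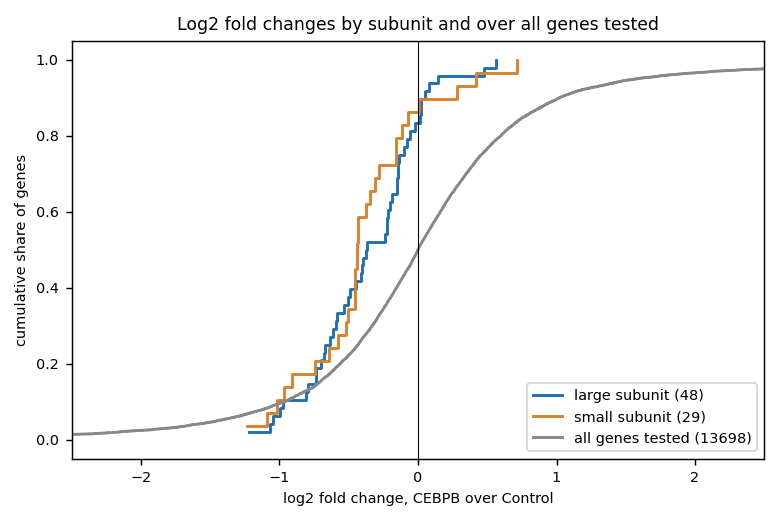
Cumulative share of genes (y axis) by log2 fold change, CEBPB over Control (x axis), for the large subunit, the small subunit and all 13698 identifiers tested. Over the middle of the range both subunit curves lie to the left of that of all genes, with medians of -0.37 and -0.44 against 0.00, and the curve of all genes has the wider tails.

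Summed over all 78 genes, the members took 0.577% and 0.542% of TPM in the CEBPB libraries and 0.643% and 0.641% in the controls. The large-subunit genes summed to 3900 and 3678 TPM in the CEBPB libraries, against 4365 and 4343 TPM in the controls. The small-subunit genes summed to 1867 and 1744 TPM, against 2060.2 and 2065 TPM in the controls. Both sums were lower in both CEBPB libraries than in either control. The ratio of the large to the small sum was 2.09 and 2.11 in the CEBPB libraries and 2.12 and 2.10 in the controls, so the groups overlapped. This overlap depended on the members summed. With genes placed by structure the ratio was 2.34 and 2.36 in the CEBPB libraries and 2.31 and 2.295 in the controls, with no overlap. Without MRPL33, the most abundant member, the large subunit summed to 3559 and 3357 TPM in the CEBPB libraries and 3779 and 3782 TPM in the controls. The ratio was then 1.91 and 1.92 in the CEBPB libraries and 1.83 in both controls, again higher in both CEBPB libraries, a choice made after seeing the data. No test was made, since 2 libraries against 2 are too few for an exact permutation test to pass.

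**Figure D3:**
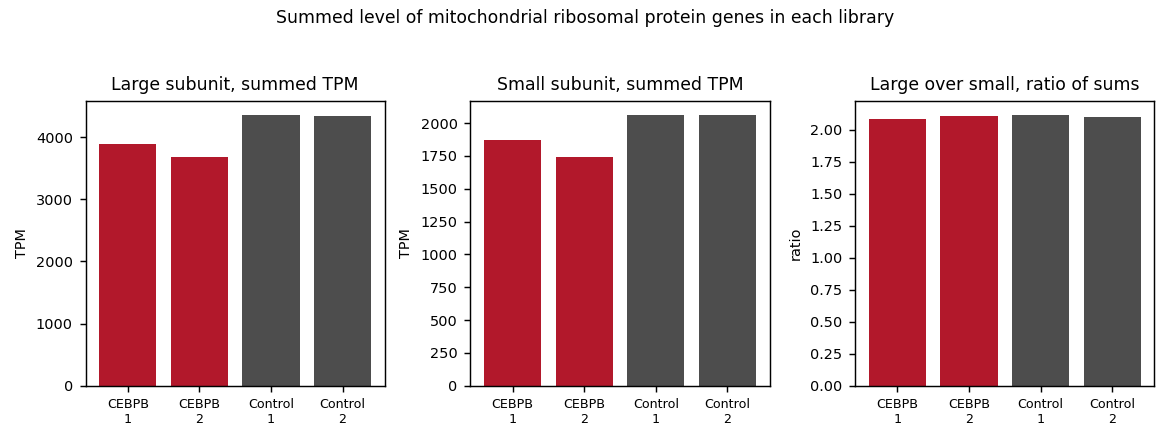
Summed TPM of the large-subunit and small-subunit genes and the ratio of these sums (y axes), in each of the 4 libraries (x axes). The sums are lower in both CEBPB libraries, at 3678 to 3900 and 1744 to 1867 TPM, while the ratio is 2.09 to 2.12 in all 4.

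TPM is per length, so levels can be compared between genes as far as their effective lengths hold. MRPL33, the highest below, had effective lengths of 243 to 248 bases, and how this bears on its level was not tested. Among tested large-subunit genes the mean TPM ran from 12.8 (MRPL57) to 331 (MRPL33) in the CEBPB libraries, with a median of 64.9, and from 15.2 (MRPL50) to 574 (MRPL33) in the controls, with a median of 77.4. Small-subunit genes ran from 9.97 (MRPS17) to 179.6 (MRPS6) in the CEBPB libraries, with a median of 50.5, and from 12.6 (MRPS17) to 173 (MRPS23) in the controls, with a median of 61.2. In TPM, both CEBPB libraries were below both controls for 47 of the 77 members (28.6% of all identifiers) and above both for 18 (48.7% of all identifiers), and the groups overlapped for 12. Replicates of the members differed by a median of 0.10 on the log2 TPM scale in the CEBPB group and 0.06 in the control group, against 0.17 and 0.12 over all identifiers. CEBPB replicate 1 read higher than replicate 2 for 58 of the 77 members, and control replicate 1 higher than replicate 2 for 36.

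Members marked u or b were set beside those marked m. Of 46 genes marked u or b 31 fell and 3 rose, with a median log2 fold change of -0.45. Of 31 tested other members 15 fell and 2 rose, with a median of -0.24. MRPS36, which is no ribosomal protein by structure, is 1 of these 2, and without it 15 of 30 fell and 1 rose (median -0.27). MRPS18A and MRPS18B are counted here by their m names, although they are relatives of bacterial S18. Among large-subunit genes 18 of 30 marked u or b and 7 of 18 others fell, and among small-subunit genes 13 of 16 and 8 of 13. Of all identifiers tested 24.7% were lower and 23.7% higher. The difference between genes marked u or b and the others was not tested.

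The largest falls included proteins of the decoding site and of the stalk that binds translation factors. MRPS12 (uS12m, ENSG00000128626.12), the counterpart of the bacterial protein S12 at the decoding centre, lies on chromosome 19 at 38930548 to 38933162, plus strand (GENCODE v29, GRCh38). It read 26.0 and 20.7 TPM in the CEBPB libraries, against 46.7 and 50.1 TPM in the controls. The groups did not overlap, and the level fell by 1.23 on the log2 scale (SE 0.10, adjusted p = 7.1e-04, edgeR), the most of all members. The other listed genes of the mRNA path were MRPS24 (uS3m), at 70.7 and 69.6 TPM against 95.5 and 89.7 TPM in the controls, and MRPS5 (uS5m), at 41.3 and 40.2 TPM against 46.2 and 41.4 TPM. Both fell, so that 3 of 3 listed genes of this place were lower, against 24.7% of all identifiers. With library totals 2 of 3 were lower, against 17.2% of all identifiers. MRPS5 was the gene lost there (-0.10, adjusted p = 0.378, edgeR). It did not pass with DESeq2 (adjusted p = 0.0948), with upper-quartile scaling (0.0535), without CEBPB replicate 1 (0.127) or 2 (0.0795), or without control replicate 1 (0.222) or 2 (0.0548).

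MRPL12 (bL12m, ENSG00000262814.8), the stalk protein that contacts translation factors and is also known to bind the mitochondrial RNA polymerase, lies on chromosome 17 at 81703357 to 81707526, plus strand. It read 54.2 and 50.2 TPM in the CEBPB libraries, against 106 and 109 TPM in the controls. It fell by 1.22 on the log2 scale (SE 0.06, adjusted p = 2.2e-04, edgeR), the most of the large subunit. Around it in the stalk, MRPL11 (uL11m) fell, at 68.6 and 67.1 TPM in the CEBPB libraries and 109.9 and 100.3 TPM in the controls. MRPL53 fell as well, at 71.6 and 66.7 TPM in the CEBPB libraries and 83.4 and 79.0 TPM in the controls. MRPL10 (uL10m), on which MRPL12 is mounted, did not pass, at 52.2 TPM in both CEBPB libraries and 44.4 and 49.4 TPM in the controls (log2 fold change -0.02, adjusted p = 0.84, edgeR). MRPL54 did not pass either, at 65.5 and 67.8 TPM against 55.7 and 60.5 TPM in the controls (0.02, adjusted p = 0.86, edgeR). So 3 of the 5 listed stalk genes fell, and 2 with library totals, where MRPL53 did not pass (-0.23, adjusted p = 0.0562, edgeR). The share lower over all identifiers was 24.7%, and 17.2% with library totals. In TPM both CEBPB libraries stood above both controls for MRPL10 and MRPL54, as they did for 48.7% of all identifiers tested.

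Other strong falls were spread over the large subunit. MRPL24 (uL24m), at the rim of the tunnel through which new proteins leave, read 40.6 and 38.7 TPM in the CEBPB libraries and 76.2 and 71.1 TPM in the controls (log2 fold change -1.07, SE 0.07, adjusted p = 3.8e-04, edgeR). MRPL4 (uL4m), which in bacteria lines the tunnel, read 50.3 and 44.6 TPM against 84.5 and 88.6 TPM in the controls (-1.05, SE 0.07, adjusted p = 4.0e-04, edgeR). MRPL3 (uL3m), a protein near the peptidyl transferase centre in which mutations cause a disorder of oxidative phosphorylation, read 97.1 and 95.8 TPM against 173 and 166 TPM (-0.99, SE 0.07, adjusted p = 3.7e-04, edgeR). In these 3 genes both CEBPB libraries lay below both controls in TPM, as in 28.6% of all identifiers tested. The 3 were chosen by their large falls. MRPL33 (bL33m), a small protein and the most abundant member, read 340.1 and 321 TPM in the CEBPB libraries and 586 and 561 TPM in the controls (-0.98, SE 0.06, adjusted p = 3.2e-04, edgeR). BABAM2, which overlaps MRPL33 on the same strand, did not pass, and how reads of overlapping genes were assigned is not given in the sources used here.

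Of the listed genes at the rim of the exit tunnel 2 of 4 tested fell, against 24.7% of all identifiers that were lower. Beside MRPL24, MRPL23 (uL23m) read 37.5 and 34.7 TPM in the CEBPB libraries and 47.7 and 51.3 TPM in the controls. Another identifier has the same values as MRPL23, so its level is uncertain. MRPL22 (uL22m), at 58.3 and 53.3 TPM against 50.6 and 51.7 TPM, and MRPL47 (uL29m), at 135 and 133 TPM against 131 and 132 TPM, did not pass. MRPL45, the member that anchors the ribosome at the inner membrane, was not tested. Its identifier read 0.332 and 0 TPM in the CEBPB libraries and 0.676 and 0 TPM in the controls, and whether its reads went to another identifier was not tested.

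In the central protuberance, the top of the large subunit, which contacts the head of the small one, 4 of 10 listed genes fell, 1 rose and 5 did not pass. The shares over all identifiers were 24.7% lower and 23.7% higher. MRPL52 fell, at 90.4 and 81.6 TPM in the CEBPB libraries and 119 and 123 TPM in the controls. MRPL55 (bL31m), MRPL57 and MRPL38 fell too, MRPL55 at 49.4 and 41.8 TPM against 58.8 and 75.02 TPM. MRPL58, also known as ICT1, which can release proteins from stalled ribosomes, did not pass, at 63.8 and 59.7 TPM against 58.9 and 61.3 TPM in the controls, and its groups overlapped.

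In the small subunit, proteins marked m were among the largest falls. MRPS26 read 24.9 and 22.4 TPM in the CEBPB libraries, against 48.05 and 40.9 TPM in the controls (log2 fold change -1.09, SE 0.10, adjusted p = 0.0010, edgeR). MRPS34, in which mutations cause Leigh syndrome, read 62.1 and 54.5 TPM against 98.5 and 109.9 TPM (-1.02, SE 0.08, adjusted p = 6.6e-04, edgeR). MRPS25 read 41.5 and 39.1 TPM against 70.4 and 68.4 TPM (-0.96, SE 0.07, adjusted p = 3.9e-04, edgeR). MRPS27, a protein with pentatricopeptide repeats that binds RNA, read 45.0 and 46.4 TPM against 71.7 and 79.5 TPM (-0.91, SE 0.09, adjusted p = 9.8e-04, edgeR). In each of these 4 genes both CEBPB libraries lay below both controls, as in 28.6% of all identifiers tested. The 4 were chosen by their large falls. Also lower in both CEBPB libraries were MRPS2 (uS2m), at 40.3 and 36.3 TPM against 55.7 and 57.3 TPM, which fell, and MRPS23, the small-subunit gene with the highest mean TPM, at 132 and 120 TPM against 175 and 172 TPM (-0.64, SE 0.06, adjusted p = 0.0010, edgeR).

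The MRPS18 genes are 3 relatives of the bacterial protein S18, and each protein occupies its own place in the ribosome. MRPS18B (mS40), in the small subunit, fell, at 102 TPM in both CEBPB libraries and 118 and 111 TPM in the controls (-0.35, SE 0.07, adjusted p = 0.011, edgeR). It did not pass without control replicate 1 (-0.31, adjusted p = 0.092) or when scaled by library totals (-0.17, adjusted p = 0.097). MRPS18C (bS18m), the form at the place of bacterial S18, did not pass, at 45.6 and 41.7 TPM against 45.4 and 40.7 TPM in the controls (-0.16, SE 0.08, adjusted p = 0.17, edgeR). MRPS18A (mL66), in the large subunit, did not pass either, at 58.7 and 50.9 TPM against 47.9 and 48.6 TPM (0.00, SE 0.07, adjusted p = 0.97, edgeR). MRPS30 (mL65), the other protein of the large subunit with an MRPS symbol, fell, at 41.1 and 39.5 TPM in the CEBPB libraries and 43.3 and 44.9 TPM in the controls (-0.31, SE 0.07, adjusted p = 0.014, edgeR). That call was lost with library totals (-0.13, adjusted p = 0.21). It was lost as well if CEBPB replicate 1 (0.0515), control replicate 1 (0.0677) or control replicate 2 (0.102) was left out.

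**Figure D4:**
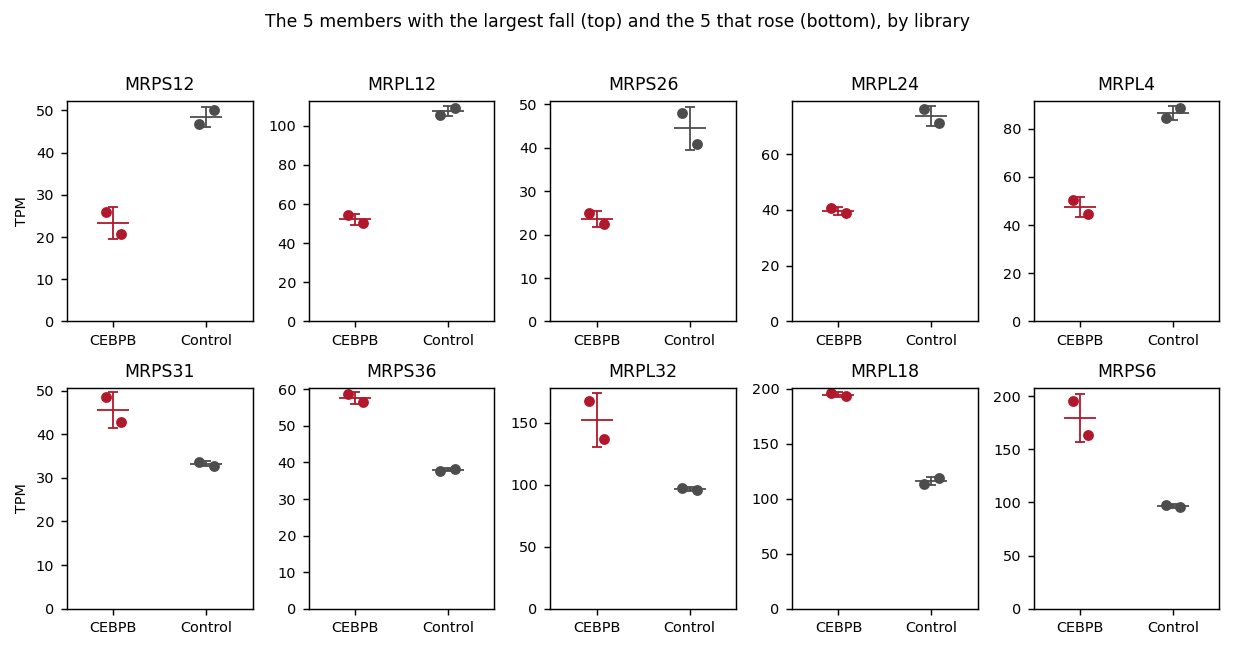
TPM (y axis) in each library of the 5 members with the largest fall (top row) and the 5 that rose (bottom row), with the mean and SD of each group (n = 2). In all 10 genes the CEBPB and control libraries do not overlap, but the genes were chosen by their log2 fold changes. Of all identifiers tested, 28.6% had both CEBPB libraries below both controls and 48.7% had both above.

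A handful of genes went the other way. MRPS6 (bS6m, ENSG00000243927.6, chromosome 21, 34073224 to 34143034, plus strand), a small-subunit protein with a bacterial counterpart, read 196 and 163 TPM in the CEBPB libraries, against 97.7 and 95.4 TPM in the controls. At 0.71 its log2 fold change was the highest of all members (SE 0.08, adjusted p = 0.0017, edgeR). SLC5A3, a myo-inositol transporter gene that overlaps MRPS6 on the same strand, rose too, at 21.6 and 17.8 TPM in the CEBPB libraries and 6.44 and 8.04 TPM in the controls (1.26, adjusted p = 0.0019, edgeR). Reads of the shared stretch may be divided between both genes, so the MRPS6 value is uncertain.

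MRPL18 (uL18m), which in bacteria binds 5S ribosomal RNA and in human cells is known to bring that RNA into mitochondria, lies on chromosome 6 at 159789812 to 159798436, plus strand. It read 196 and 193 TPM in the CEBPB libraries, against 114 and 119 TPM in the controls (log2 fold change 0.57, SE 0.06, adjusted p = 0.0017, edgeR). TCP1, a subunit of the cytosolic chaperonin, starts 63 bases upstream on the other strand and rose as well (0.56, adjusted p = 0.0036, edgeR). MRPL32 (bL32m), which is matured by a protease of the inner membrane before assembly, read 168 and 137 TPM against 97.9 and 95.6 TPM in the controls (0.48, SE 0.09, adjusted p = 0.0084, edgeR). Without control replicate 2 it did not pass (0.46, adjusted p = 0.0515). PSMA2, a proteasome subunit gene that overlaps MRPL32 on the other strand, also rose (0.39, adjusted p = 0.017, edgeR).

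MRPS36, the gene of the oxoglutarate dehydrogenase part named above, read 58.8 and 56.5 TPM in the CEBPB libraries, against 37.8 and 38.3 TPM in the controls (log2 fold change 0.42, SE 0.06, adjusted p = 0.0042, edgeR). MRPS31 read 48.5 and 42.7 TPM against 33.6 and 32.8 TPM (0.28, SE 0.07, adjusted p = 0.028, edgeR). It did not pass with DESeq2 (adjusted p = 0.098), with recovered reads (0.075), or without CEBPB replicate 1 (0.087), control replicate 1 (0.115) or control replicate 2 (0.156), and MRPS31P4, a pseudogene of it, averaged 7.50 TPM, so its value is uncertain. The rises of MRPS6 and MRPL18 passed in all other settings run, but not when tested for more than a 1.5-fold rise (adjusted p = 0.12 for MRPS6 and 0.85 for MRPL18).

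The members nearest to 0 on the log2 scale were MRPS18A, MRPL9, MRPL54, MRPL10 and MRPL49. MRPL9 (bL9m) read 91.0 and 96.1 TPM in the CEBPB libraries and 80.7 and 83.2 TPM in the controls (0.01, SE 0.08, adjusted p = 0.91, edgeR). MRPL49 read 41.1 and 41.3 TPM against 35.3 and 36.3 TPM (0.02, SE 0.07, adjusted p = 0.81, edgeR). These 5 genes changed sign under some settings. In TPM, both CEBPB libraries of each were above both controls, as were those of 48.7% of all identifiers.

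The effective length of a gene, the mean length of its transcripts weighted by their abundance, is a readout that the choice of genes did not use. It differed at least 1.1-fold between group means, with no overlap of the libraries, in 7 of the 77 members (9.09%), against 18.1% of all identifiers tested. The median ratio of CEBPB to control length was 1.02 over the members and 1.02 over all identifiers. MRPL35 (bL35m) stood out among the members, with 1137 and 1188 bases in the CEBPB libraries, against 850 and 913 bases in the controls. The level of MRPL35 fell at the same time, at 59.1 and 54.6 TPM in the CEBPB libraries and 89.5 and 84.4 TPM in the controls. MRPS16, MRPL30, MRPS23 and MRPS14 were longer as well, MRPS16 at 1350 and 1301 bases against 1135 and 1146 bases in the controls. MRPS36, at 690 and 672 bases against 776 and 739 bases, and MRPS30, at 1048 and 1063 bases against 1168 and 1201 bases, were shorter.

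**Figure D5:**
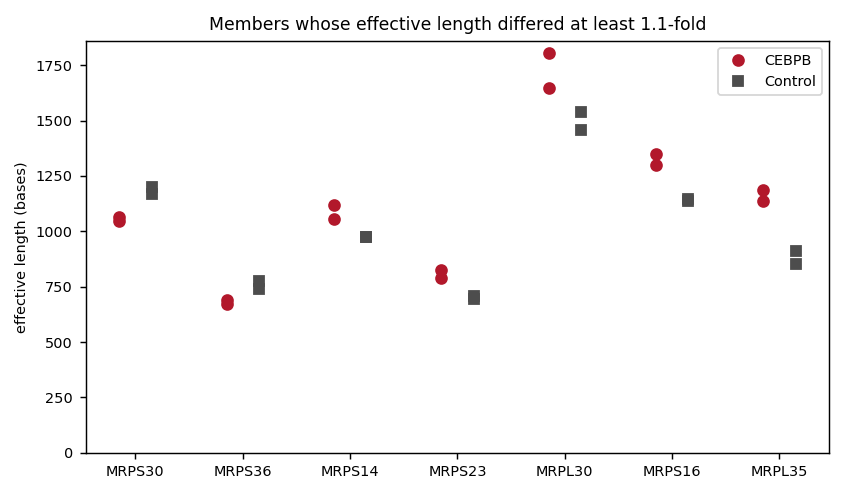
Effective length in bases (y axis) of the 7 members whose group means differed at least 1.1-fold without overlap, as points for the CEBPB libraries (circles) and control libraries (squares). MRPL35 has the largest ratio, at 1137 and 1188 bases in the CEBPB libraries against 850 and 913 bases in the controls.

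Many of these genes lie head to head with another gene. A protein-coding gene on the other strand started within 1000 bases upstream of 17 of the 78 members (21.8%), against 10.3% of 11785 tested protein-coding genes (GENCODE v29). Of these 17 members 7 fell, and their partners included 6 that fell and 4 that rose, with MRPS11 and MRPL46 counted once from each side. For comparison, 24.7% of all identifiers tested were lower and 23.7% higher, and 59.7% of all tested members fell. Both genes fell in 3 pairs: MRPS34 with EME2, MRPL52 with SLC7A7 and MRPL57 with SKA3. Both rose in 2 pairs, MRPL18 with TCP1 and MRPL32 with a coding gene listed as AC010132.3. In 0 of these head-to-head pairs did the genes pass in opposite directions, but both genes passed only in the 3 and 2 pairs named. Whether paired genes change together was not tested. MRPS11 fell, at 44.1 and 42.5 TPM against 53.8 and 51.2 TPM in the controls, while MRPL46, which starts 34 bases away, did not pass, at 51.8 and 50.0 TPM against 57.4 and 48.6 TPM. In all, 38 members overlap another coding gene, and such genes went both ways. MRPS25 fell while NR2C2, which overlaps it on the other strand, rose (0.70, adjusted p = 0.0042, edgeR). MRPL34 fell while ABHD8, also on the other strand, rose (0.85, adjusted p = 0.020, edgeR). MRPS27 fell, and so did PTCD2 on the other strand (-0.71, adjusted p = 0.020, edgeR). These are examples and not a count. Separately, 79 identifiers carry the name of a pseudogene of 36 members. Those pseudogenes summed to 10.2 to 15.4 TPM per library, and 2 of them averaged over 1 TPM.

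Some proteins of the mitochondrial ribosome carry other symbols. Of 5 such genes 4 fell and 0 rose, and 0 were higher at an unadjusted p under 0.05 or with DESeq2, with a median log2 fold change of -0.49. Among all identifiers 24.7% were lower and 23.7% higher. GADD45GIP1 (mL64) averaged 18.8 and 25.6 TPM in CEBPB and control libraries (-0.63, adjusted p = 0.0023, edgeR). AURKAIP1 (mS38) averaged 39.0 and 48.4 TPM (-0.49) and PTCD3 (mS39), which guides mRNA to the small subunit, 91.6 and 113 TPM (-0.49). DAP3 (mS29), a GTP-binding protein, averaged 189 and 204 TPM (-0.29), a call lost with library totals (-0.11, adjusted p = 0.21, edgeR) and without any 1 of 3 libraries (adjusted p = 0.054 to 0.15). CHCHD1 (mS37) did not pass (-0.11, adjusted p = 0.40, edgeR).

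Factors that build the ribosome were read as well. Of 27 listed genes of assembly and ribosomal RNA modification 11 fell and 2 rose, with a median log2 fold change of -0.17. The 11 and 2 are 40.7% and 7.41%, against 24.7% lower and 23.7% higher of all identifiers. With library totals 8 fell and 2 rose, against 17.2% lower and 32.3% higher of all identifiers, and the median was 0.02. C1QBP, a matrix protein needed for mitochondrial translation, averaged 385 and 657 TPM in CEBPB and control libraries (-0.95, adjusted p = 3.5e-04, edgeR). The rRNA methyltransferase MRM1 averaged 4.02 and 10.8 TPM (-1.61), and RBFA, which helps mature the small subunit, 13.6 and 23.3 TPM (-0.96). GRSF1, a protein of mitochondrial RNA granules, rose, at 168 and 109 TPM (0.45, adjusted p = 0.0066, edgeR), but not without control replicate 1 (adjusted p = 0.052).

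Of 15 translation factors 8 fell (53.3%) and 1 rose (6.67%), with a median of -0.31, against 24.7% lower and 23.7% higher of all identifiers. With library totals 5 fell and 2 rose (median -0.13), against 17.2% lower and 32.3% higher of all identifiers. The elongation factor TUFM averaged 140 and 229 TPM in CEBPB and control libraries (-0.89, adjusted p = 3.9e-04, edgeR), and the recycling factor MRRF 34.0 and 49.9 TPM (-0.73). The initiation factor MTIF3 averaged 51.6 and 38.9 TPM (0.23, adjusted p = 0.049, edgeR). It did not pass with DESeq2 (adjusted p = 0.16), limma-voom (0.060) or recovered reads (0.19), nor with any 1 library left out.

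Of 14 genes of mitochondrial transcription and RNA handling 10 fell and 0 rose (median -0.44), with 0 higher at an unadjusted p under 0.05 or with DESeq2. The 10 are 71.4%, against 24.7% lower and 23.7% higher of all identifiers. With library totals 6 fell (median -0.26), against 17.2% lower and 32.3% higher of all identifiers. LRPPRC, which stabilises mitochondrial mRNAs, averaged 73.1 and 101 TPM in CEBPB and control libraries (-0.65), its partner SLIRP 209 and 258 TPM (-0.48) and the nucleoid protein TFAM 122 and 153 TPM (-0.50). The RNA polymerase POLRMT did not pass, at 18.7 and 16.6 TPM (-0.01, adjusted p = 0.94, edgeR).

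The 13 mRNAs that the mitochondrial ribosome translates took 5.06% and 5.53% of TPM in the CEBPB libraries and 5.63% and 6.09% in the controls. Of these 6 fell (46.2%, against 24.7% of all identifiers), and all 13 had log2 fold changes below 0 (median -0.32). With library totals 2 fell, against 17.2% of all identifiers, and the 13 ran from -0.22 to -0.03 (median -0.15). For comparison, 73 of 79 tested cytosolic ribosomal protein genes fell, and all 79 were below 0 (median -0.57, quartiles -0.65 and -0.50). Of 81 tested nuclear genes of the respiratory chain and ATP synthase 53 fell and 4 rose (median -0.33, quartiles -0.52 and -0.20). The mitochondrial ribosomal proteins, with quartiles at -0.63 and -0.14 and 5 genes that rose, were read from the same 4 libraries, and the differences between these sets were not tested. MYC, a transcription factor known to act on ribosome and mitochondrial genes, read 74.4 and 80.2 TPM in the CEBPB libraries and 230 and 245 TPM in the controls, and its part in these values was not tested.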

How the data were processed

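RNA of OCI-AML3 cells was sequenced from poly(A)-selected stranded libraries, per the labels' protocols. Trimmomatic 0.39, kallisto 0.46.2 and GRCh38 are named in the submitters' processing notes, while the annotation, strand setting and step to genes are not given in the sources used here. The authors deposited gene-level expected counts, TPM, and effective lengths in bases (another unit). Each deposited count equals its TPM times 1 constant per library (18.2 to 22.0), so the counts carry no length. Tested members had 194 to 3745 recovered reads (TPM times length, scaled to the library total) per library. Tests on counts therefore ran on rescaled TPM and not on read numbers, except where recovered reads are named.

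Counts were rounded, filtered with filterByExpr, scaled by TMM and tested with edgeR 4.0.16 (quasi-likelihood, group only) in R 4.3.3, adjusted over 13698 identifiers. SE is the log2 fold change over the root of F. Symbols came from a gene name table, coordinates from GENCODE v29 matched without version. Alternatives used limma 3.58.1 and DESeq2 1.42.0. The fit was tested on simulated data. Every member could be named, and full statistics went to the 10 largest falls, all rises, the 5 nearest to 0, the most abundant of each subunit and 7 fixed genes, and in other lists to up to 4 genes by adjusted p. Members, lists and motifs were chosen with earlier results of these data known. Where a gene outside that rule is named, it was chosen after its values were seen. Intervals and p-values cover these libraries only. Of the promoter matches chosen to be shown 1, and of the markers 1 by name, are not reported here.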

Additional observations from a re-analysis of the deposited data

How the results depend on the processing

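The 46 members that fell and 5 that rose numbered 45 to 47 and 5 with DESeq2 size factors, upper-quartile scaling or a 1 CPM filter, and 43 and 4 with the DESeq2 test. With recovered reads and an offset for length, 46 fell and 4 rose. Against a 1.5-fold change 12 fell (7 large, 5 small) and 0 rose in either subunit, and 1188 identifiers were lower and 1186 higher over all genes. With library totals 37 fell and 7 rose, against 17.2% lower and 32.3% higher of all identifiers; the 37 were among the 46, and 4 large-subunit genes rose, as they did on log2 TPM with 1 or 0.1 added (also 4). The medians of large and small subunit were then -0.19 and -0.26 in all 3 settings, and the median of all genes moved to 0.18 with library totals. With 1 library left out, 38 to 47 members fell and 3 to 5 rose (21 to 27 and 1 to 2 in the large, 17 to 20 and 2 to 3 in the small subunit), with medians of -0.40 to -0.32 and -0.44 to -0.42, against 2398 to 3063 lower and 2289 to 2820 higher identifiers. The 3 rises came without control replicate 2, the only case over 1.5 times from the 5. With medians in place of sums, the ratio of large to small averaged 1.27 in CEBPB and 1.24 in control libraries. The groups overlapped there, at 1.28 and 1.25 in the CEBPB libraries and 1.23 and 1.26 in the controls. By place the ratio averaged 2.35 in CEBPB and 2.30 in control libraries. Without MRPL33, chosen after seeing the data, it averaged 1.92 in CEBPB and 1.83 in control libraries.

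Signs changed for 6 named genes that had not passed. MRPL10 stood at 0.155, 0.154 and 0.157 with library totals and log2 TPM (1 or 0.1 added), and MRPS18C at 0.0215, 0.0205 and 0.0210. MRPS18A was at -0.0039 with recovered reads. With 1 library left out, MRPS18A ran from -0.0544 to 0.0698, MRPL9 from -0.0617 to 0.0967, MRPL54 from -0.0384 to 0.0910, MRPL10 from -0.0993 to 0.0534 and MRPL49 from -0.0132 to 0.0751. The cause was not tested.

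With a replicate block 46 members fell and 5 rose, with 3174 identifiers higher and 3308 lower; replicate numbers share no stated source, and differences between same-numbered libraries correlated at -0.01. The depth limits members little, and 2 libraries per group limit all tests.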
